A study of Homo sapiens with 6 samples.

Results

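Of the 17891 genes in the deposited expression table, 10 genes of double-stranded RNA sensing were followed here, and all 10 were found by gene symbol. They are the RNA helicases DDX58 (RIG-I, now also called RIGI), IFIH1 (MDA5) and DHX58 (LGP2), the endosomal receptor TLR3, the kinase EIF2AK2 (PKR), the RNA-editing enzyme ADAR, the adaptors MAVS and TICAM1 (TRIF), and the kinases TBK1 and IKBKE. The members are thus not sensors and adaptors alone: TBK1 and IKBKE are signalling kinases and ADAR modifies RNA. The RNA came from T47D, a long-established human breast cancer line of luminal type. The PRL group (3 libraries) received the prolactin gene, PRL, on a PLVX-puro lentivirus and the control group (3 libraries) the same lentivirus system without it, so both groups had been exposed to a lentiviral vector. Both had grown for 2 days in RPMI1640 medium with fetal bovine serum, with no further treatment. The series describes the 3 libraries of a group as biological replicates, and no source used here says that they came from separate transductions or cultures. P-values then measure only the spread between these libraries, which may be technical.

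Double-stranded RNA is rare in healthy cytoplasm and is formed by many replicating viruses and by paired repeat transcripts of the cell itself. RIG-I and MDA5 bind it in the cytosol and signal through MAVS on the mitochondrial surface, while TLR3 binds it in endosomes and signals through TICAM1. Both routes reach the kinases TBK1 and IKK-epsilon, the product of IKBKE, which phosphorylate interferon regulatory factors. LGP2 lacks the signalling domains of the other 2 helicases and modulates them, PKR halts translation when it binds double-stranded RNA, and ADAR edits adenosine to inosine in such RNA, which weakens its pairing. Several of these genes are themselves interferon-stimulated in many cell types.

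Libraries held 16211146 to 17402348 estimated gene counts, and PRL itself went from 1 to 3 counts per control library to between 7789 and 8277 per PRL library, in the direction of the labels. Controls were less alike than PRL libraries: per gene, chi-square values of control pairs were 12.7 to 24.4 and those of PRL pairs 1.66 to 2.17, with about 1 due to sampling noise. Of 8 luminal markers such as KRT8, GATA3 and EPCAM, all were present in every library, at a summed level of 17274 to 19290 TPM (transcript abundance scaled to gene length and library). That sum is mostly keratins, and 7 of the 8 passed the test: PGR, FOXA1 and GATA3 were higher and KRT8, KRT18, KRT19 and ESR1 lower. On log2(TPM + 1) the differences of KRT19 and ESR1 did not pass and that of ESR1 was above 0. Markers of immune and stromal cells summed to 21.9 to 30.1 TPM in controls and 52.5 to 53.9 TPM in the PRL group. Of 9 tested, 4 were higher (CD68, COL1A1, CD14, CD3E) and 1 was lower (LYZ) in the PRL group. The leukocyte marker PTPRC had 12 to 20 counts and the fibroblast marker COL3A1 at most 2 counts in any library. COL1A1 was not scarce, with 678 to 921 counts in controls and 1247 to 1297 in the PRL group. CD68 had 48 to 59 counts in controls and 267 to 273 in the PRL group. The part of these markers in the results below was not tested. In a bulk sample, more cells with a transcript and more of it in each cell cannot be told apart.

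The groups were compared to see which transcripts prolactin overexpression goes with in this line. Of the 10 genes, 8 were higher and 1 (MAVS) lower in the PRL group at an adjusted p under 0.05, and IKBKE did not pass the test (edgeR's quasi-likelihood test on counts, p adjusted over all 14076 tested genes). All 10 had passed the filter on low counts. Of all tested genes 62.9% passed the same threshold, 32.4% higher and 30.5% lower, so a call is common in these data. Of the 10 genes, 6 were called and at least 2-fold higher, against 10.6% of all tested genes. The median log2 fold change was 1.54 over the 10 genes and 0.01 over all tested genes. The 10 genes were chosen with earlier results of these data known, and the 2-fold requirement was added after seeing the data. These contrasts with all genes are therefore descriptive. Without any one library, the same 9 genes were called in the same directions.

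**Figure D1:**
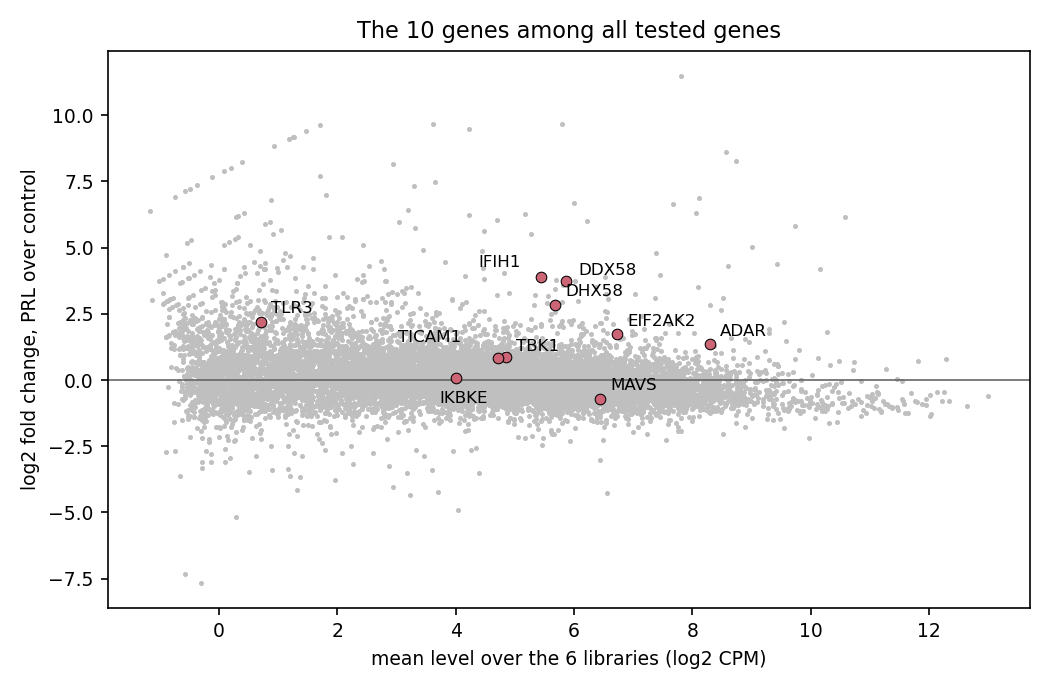
Each grey point is a tested gene, with its mean level over the 6 libraries (log2 CPM, horizontal) and its log2 fold change of PRL over control (vertical), and the 10 genes are red and named. IFIH1 and DDX58 lie near 4 on the vertical axis, MAVS lies below 0 and IKBKE near 0.

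Levels are given as TPM, which allows genes of different length to be compared, and changes as log2 fold changes on counts after TMM (trimmed mean of M values) scaling. The 2 scales differ: on log2(TPM + 1) the median change was 0.39 over the 12494 genes with a mean of at least 1 TPM. With no filter it was 0.225 over 17887 genes. On counts it was 0.01 on the TMM scale and 0.26 with library totals, both over 14076 genes. Of the genes that passed, 51.4% were higher on the TMM scale, 72.9% with library totals and 83.7% on TPM.

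Promoters of 9 of the 10 genes (all but DHX58) were matched in RefSeq's set of windows from 250 bases before to 50 after a gene's start (GRCh38.p14), with 3 windows for ADAR. They were searched on both strands for 2 copies of GAAA with any 2 bases between them, the core of the interferon-stimulated response element, which interferon regulatory factors bind, and for TTC and GAA with any 3 bases between them, a pattern that STAT5, a factor downstream of the prolactin receptor, binds. The first pattern was present at IFIH1, EIF2AK2 and TLR3, 3 of 9 genes, and in 3.57% of 35116 windows of the same length. The stretches that hold it are shown because these genes rose, with the matching bases in capitals, 5′ to 3′ on the gene's strand. A match is a run of letters and not a measured binding site. The IFIH1 window holds 3 matches, of which 2 overlap.

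IFIH1, upstream pair, chr2:162318808-162318903, minus strand: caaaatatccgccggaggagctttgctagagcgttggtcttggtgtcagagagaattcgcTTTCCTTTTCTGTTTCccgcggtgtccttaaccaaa
IFIH1, near the start, chr2:162318676-162318765, minus strand: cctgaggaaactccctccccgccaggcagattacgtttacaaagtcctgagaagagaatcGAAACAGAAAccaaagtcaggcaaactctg
EIF2AK2, chr2:37156957-37157046, minus strand: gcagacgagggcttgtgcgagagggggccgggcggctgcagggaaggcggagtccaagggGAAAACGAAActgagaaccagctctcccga
TLR3, chr4:186069092-186069181, plus strand: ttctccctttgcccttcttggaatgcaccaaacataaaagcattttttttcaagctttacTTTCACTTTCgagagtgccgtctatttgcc

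In IFIH1 the capitals begin 159 and 21 bases before the start, in EIF2AK2 6 bases before it and in TLR3 4 bases before it. The windows of DDX58, ADAR, MAVS, TBK1, IKBKE and TICAM1 do not hold these letters, which says nothing of sequence outside them. The STAT5 pattern was found at TLR3 alone among the 9 genes, with 2 matches, and in 7.66% of all windows. Genes that rose are thus found both with and without a match in this window.

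The cytosolic helicases changed most. DDX58 (NCBI gene 23586, GRCh38 chromosome 9, 32455705 to 32526324, minus strand), the sensor of RNA ends with triphosphates, had TPM values of 1.85, 2.73 and 2.54 among controls and of 43.4, 43.4 and 40.4 with PRL. The groups lay far apart, with the lowest PRL library above every control. On TPM the PRL libraries lay above every control for 9 of the 10 genes and below for MAVS, against 59.3% of all tested genes above and 71.7% in either direction. On TMM-scaled counts they lay above for 8 of the 10 and apart in either direction for 9, against 35.9% and 69.5% of all tested genes. Its log2 fold change was 3.72 (SE 0.09, edgeR adjusted p = 8.4e-10), a 13.2-fold difference.

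IFIH1 (NCBI gene 64135, chromosome 2, 162267079 to 162318703, minus strand), the sensor of long double-stranded RNA, whose promoter stretches are shown above, had 1.60, 1.94 and 2.63 TPM in controls and 43.8, 42.7 and 37.1 TPM in the PRL group. Control replicate 3 was the highest control and PRL replicate 3 the lowest PRL library. Its log2 fold change was the largest of the 10 genes at 3.88 (SE 0.12, edgeR adjusted p = 3.3e-09), and 0.774% of tested genes had a larger one. DDX58 and IFIH1 were close in level in both groups: DDX58 over IFIH1 in TPM gave 1.18 ± 0.221 among controls and 1.03 ± 0.0515 with PRL (SD, n = 3).

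DHX58 (NCBI gene 79132, chromosome 17, 42101404 to 42112733, minus strand), which encodes LGP2, started from a higher level, at 5.64, 8.19 and 5.83 TPM in controls, and reached 67.6, 62.0 and 61.9 TPM in the PRL group. Its log2 fold change was 2.84 (SE 0.12, edgeR adjusted p = 2.7e-08), or 7.16-fold. DHX58 was the most abundant of the 3 helicases in every library. Its TPM over that of DDX58 lay between 2.3 and 3.05 in controls and between 1.43 and 1.56 in the PRL group. DHX58 thus stayed above DDX58, by a smaller ratio. This ratio was not tested.

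The endosomal sensor stayed rare. TLR3 (NCBI gene 7098, chromosome 4, 186069152 to 186088069, plus strand) had 4, 11 and 9 counts in controls and 54, 47 and 28 in the PRL group, or 0.05, 0.17 and 0.13 TPM against 0.93, 0.78 and 0.48 TPM. The groups did not overlap, though PRL replicate 3 lay closer to the controls than the other two. Its log2 fold change was 2.20 (SE 0.37, edgeR adjusted p = 4.8e-04), and scaled counts were 4.65 times those of controls (95% counting interval 2.99 to 7.51). Of the 10 genes it was the least expressed in both groups, below 1 TPM in every library.

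**Figure D2:**
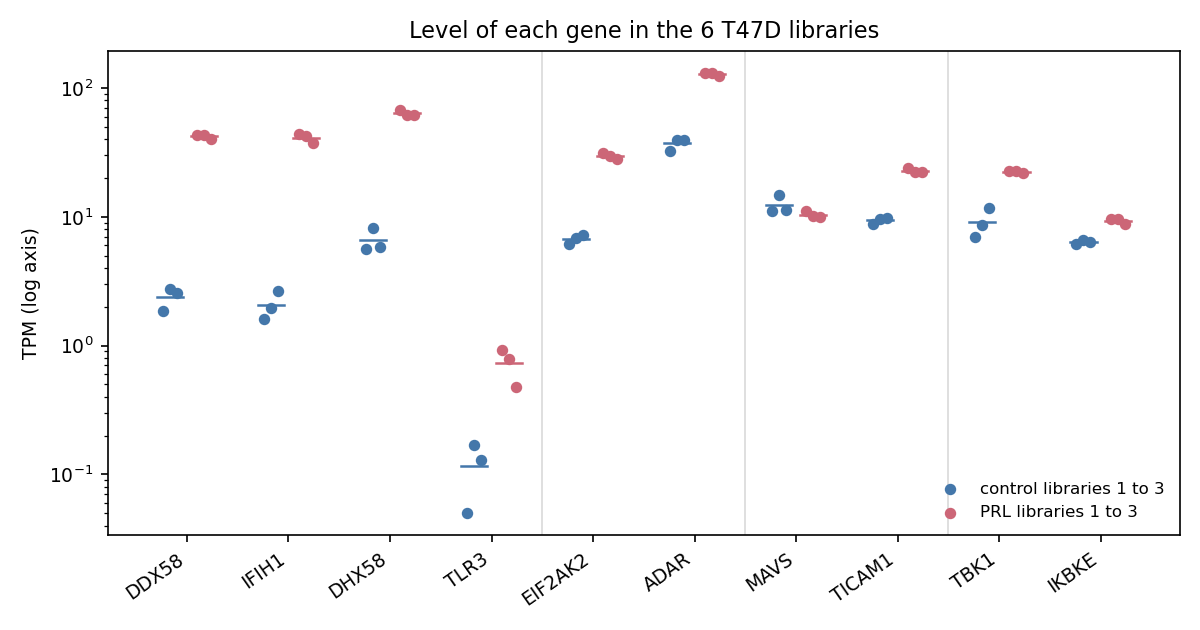
The TPM (log axis) of each gene in the 3 control libraries (blue) and the 3 PRL libraries (red) is plotted, with a bar at each group's mean and grey lines between sensors, RNA-binding effectors, adaptors and kinases. DDX58 and IFIH1 go from about 2 to about 42 TPM, TLR3 stays below 1 TPM, and the MAVS groups nearly touch.

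Both effectors that bind double-stranded RNA rose, ADAR from a higher base than the sensors and EIF2AK2 from a level like that of DHX58. EIF2AK2 (NCBI gene 5610, chromosome 2, 37099210 to 37157065, minus strand), the gene of PKR, had 6.09, 6.87 and 7.28 TPM in controls and 31.4, 29.6 and 27.9 TPM in the PRL group. The log2 fold change was 1.73 (SE 0.07, edgeR adjusted p = 4.0e-08). ADAR (NCBI gene 103, chromosome 1, 154582057 to 154628013, minus strand) had 32.6, 39.1 and 39.6 TPM in controls and 131.1, 131.3 and 124 TPM in the PRL group, the highest level of the 10 genes in every library. Its log2 fold change was 1.34 (SE 0.07, edgeR adjusted p = 2.3e-07). ADAR makes an interferon-inducible long and a constitutive short protein from different starts, which a value per gene does not separate. On TMM-scaled counts the controls of ADAR spanned 176.4 to 178.4 CPM (counts scaled to library size). Their coefficient of variation was 0.574% on this scale, the lowest of the 10 genes. In TPM the same controls ran from 32.6 to 39.6, a wider relative spread.

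The adaptors went in different directions. MAVS (NCBI gene 57506, chromosome 20, 3846799 to 3876123, plus strand), through which both signalling helicases act, had 111, 121.8 and 91.8 CPM in controls and 69.3, 64.9 and 65.0 CPM in the PRL group. Every PRL library lay below every control on this scale, and its change on the log2 scale was -0.70 (SE 0.10, edgeR adjusted p = 1.7e-04). In TPM the values were 11.1, 14.7 and 11.2 in controls and 11, 10.1 and 9.87 in the PRL group, which nearly touch, and the difference of -0.23 on log2(TPM + 1) did not pass in limma (adjusted p = 0.153). The fall of MAVS thus holds on the count scales and not on TPM, where the median change of genes is shifted upward, as given above.

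TICAM1 (NCBI gene 148022, chromosome 19, 4815932 to 4831704, minus strand), the adaptor of TLR3, had 8.78, 9.63 and 9.79 TPM in controls and 23.8, 22.2 and 22.4 TPM in the PRL group. Its log2 fold change was 0.82 (SE 0.08, edgeR adjusted p = 1.7e-05). The 2 RNA-sensing routes therefore differed in which part was abundant: TICAM1 exceeded its receptor in every library, while the helicases passed their adaptor in the PRL group.

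The TPM of DDX58 over that of MAVS was 0.167, 0.186 and 0.227 among controls and 3.93, 4.32 and 4.10 with PRL. IFIH1 gave 0.144, 0.132 and 0.235 among controls and 3.97, 4.24 and 3.76 with PRL. DHX58 gave 0.508, 0.558 and 0.521 among controls and 6.13, 6.16 and 6.27 with PRL. Each helicase transcript was below that of MAVS in the 3 controls and above it in the 3 PRL libraries. Ratios within a library do not depend on how libraries are scaled, and they describe transcripts, not proteins.

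**Figure D3:**
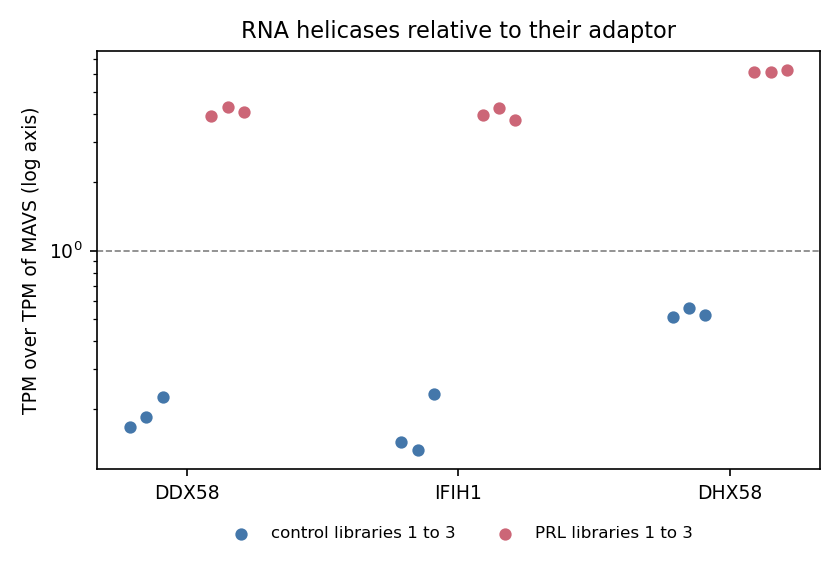
The TPM of each RNA helicase gene divided by the TPM of MAVS in the same library is plotted on a log axis, with control libraries in blue, PRL libraries in red and a dashed line at a ratio of 1. All control points lie below 1, from 0.132 to 0.558, and all PRL points above it, from 3.76 to 6.27.

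TBK1 rose by about as much as TICAM1, and IKBKE did not pass the test. TBK1 (NCBI gene 29110, chromosome 12, 64451880 to 64502108, plus strand) had 7.01, 8.59 and 11.7 TPM in controls and 22.8, 22.7 and 21.8 TPM in the PRL group. Control replicate 3 stood above the other controls, and the PRL libraries lay close together. The log2 fold change was 0.86 (SE 0.12, edgeR adjusted p = 1.2e-04), and 1.04 without control replicate 3. An antisense gene overlaps 14.7% of the exon bases of TBK1, and without strand its reads cannot be told apart from those of TBK1. The same limit holds for IKBKE and EIF2AK2, where genes on the opposite strand overlap 4.12% and 4.05% of the exon bases.

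IKBKE (NCBI gene 9641, chromosome 1, 206470476 to 206496889, plus strand), the inducible relative of TBK1, had 16.9, 15.1 and 14.4 CPM in controls and 16.6, 17 and 15.8 CPM in the PRL group. The groups overlapped, and the log2 difference, 0.09 (SE 0.10, edgeR adjusted p = 0.427), did not pass the test, which does not show that the levels were equal. With library totals it was 0.35 (edgeR adjusted p = 0.0142) and on log2(TPM + 1) 0.48 (limma adjusted p = 0.0041), so that its call depends on the scaling. In TPM it had 6.18, 6.64 and 6.34 in controls and 9.53, 9.60 and 8.71 in the PRL group. TBK1 over IKBKE in TPM gave 1.43 ± 0.377 among controls and 2.42 ± 0.0752 with PRL (SD, n = 3).

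**Figure D4:**
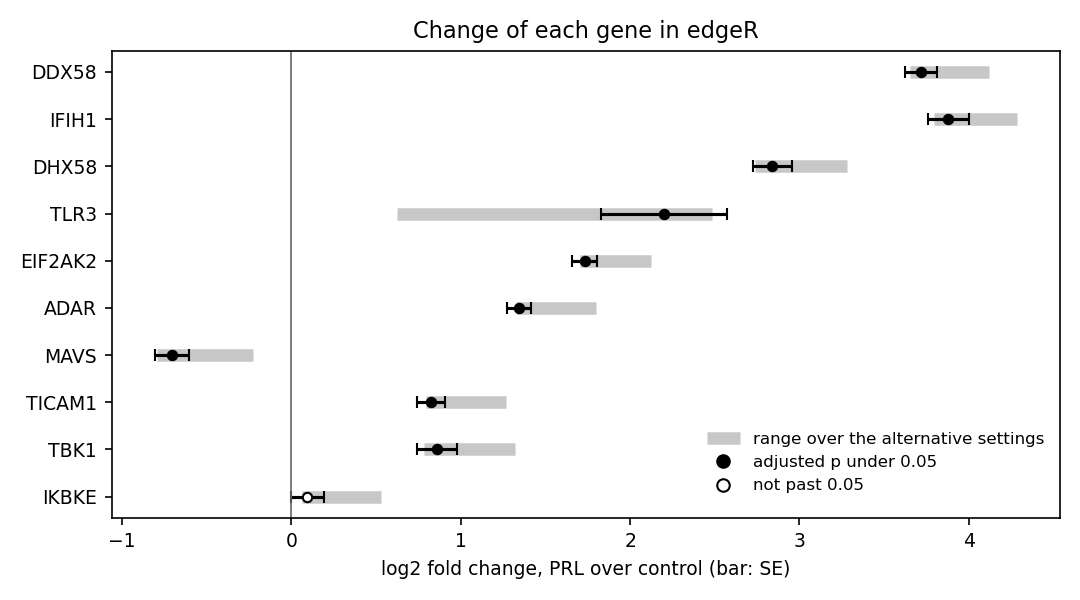
The log2 fold change of PRL over control in edgeR is plotted for each gene, with its SE as a bar, filled where the adjusted p is under 0.05 and open for IKBKE, over a grey band from the lowest to the highest value in the alternative settings. The band of MAVS stays below 0 and the others above it. That of TLR3 reaches down to 0.62, its value on log2(TPM + 1), where adding 1 shrinks the change of a gene below 1 TPM. Its mean TPM in the PRL group was 6.26 times that of controls.

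The order of the 10 genes changed between the groups. In controls the levels in TPM were 37.1 ± 3.91 for ADAR, 12.3 ± 2.04 for MAVS, 9.40 ± 0.543 for TICAM1, 9.11 ± 2.41 for TBK1 and 6.75 ± 0.605 for EIF2AK2 (SD, n = 3). Below them came DHX58 at 6.55 ± 1.42, IKBKE at 6.39 ± 0.234, DDX58 at 2.37 ± 0.463, IFIH1 at 2.06 ± 0.525 and TLR3 at 0.117 ± 0.0611. Neighbours from TICAM1 down to IKBKE differed by less than the larger of their SDs, and so did DDX58 and IFIH1.

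In the PRL group ADAR (128.8 ± 4.14 TPM) was followed by DHX58 (63.8 ± 3.27), DDX58 (42.4 ± 1.73), IFIH1 (41.2 ± 3.61) and EIF2AK2 (29.6 ± 1.74). TICAM1 (22.8 ± 0.891), TBK1 (22.4 ± 0.535), MAVS (10.3 ± 0.622), IKBKE (9.28 ± 0.495) and TLR3 (0.730 ± 0.229) came below. DDX58 and IFIH1, and TICAM1 and TBK1, differed by less than the larger of their SDs. The 3 helicases held 11.2% to 13% of the summed TPM of the 10 genes in controls and 39.3% to 40.2% in the PRL group. ADAR held 39.7% to 40.8% and 34.0% to 35.1%. DDX58 moved from the 41.3 percentile of all genes by TPM to the 80.9 percentile, and MAVS from the 65.4 to the 55.7 percentile.

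Genes with the profile most like that of a helicase were sought by the Euclidean distance between log2 CPM profiles over the 6 libraries, each centred on its control mean. For DDX58 they were IFIT5 (distance 0.28), IRF7 (0.30) and HERC6 (0.31). For IFIH1 they were PARP9 (0.19), TRANK1 (0.24) and SAMD9 (0.31). For DHX58 they were S100A8 (0.25), GBP2 (0.31) and SPINK5 (0.31). All were far less abundant than DHX58 in the PRL group, at 9.83, 6.70 and 1.97 CPM against 89.0 CPM. These profiles use a prior count of 2, which shrinks the changes of genes with few counts: in edgeR the log2 fold changes of S100A8, GBP2 and SPINK5 were 2.94, 3.14 and 3.65, against 2.84 for DHX58.

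The partners of the sensors were read from 8 lists of pathway genes, whose counts stand against 32.4% of all tested genes higher and 30.5% lower. Scaling moves these counts: on log2(TPM + 1) most lists had more genes higher and fewer lower, as did all genes. Among 10 genes that activate or assist the RNA helicases, 6 rose and 1 fell, with a median log2 fold change of 0.66 (9, 1 and 1.07 on log2(TPM + 1)). OASL, whose product carries ubiquitin-like domains and enhances RIG-I signalling, rose from 1.23 ± 0.298 to 125.5 ± 4.32 CPM (log2 fold change 6.67, edgeR adjusted p = 1.4e-10). DDX60, a helicase linked to RIG-I, rose from 0.910 ± 0.324 to 70.2 ± 2.94 CPM (6.27, edgeR adjusted p = 8.4e-10). The RNA-binding helicase gene ZNFX1 (1.24) and ZC3HAV1 (0.78), the gene of the zinc-finger antiviral protein, rose by less, with edgeR adjusted p of 5.3e-07 and 1.0e-05.

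Among 12 genes that restrain the helicases or MAVS, 5 rose and 2 fell, with a median of 0.12. With library totals 8 were higher and 1 lower (median 0.37), and on log2(TPM + 1) 9 were higher and 0 lower in limma (median 0.51). The median was 0.07 without PRL replicate 1 and 0.19 without control replicate 3. TNFAIP3, the gene of the ubiquitin-editing enzyme A20, rose from 1.40 ± 0.331 to 8.62 ± 1.16 CPM (log2 fold change 2.62, edgeR adjusted p = 2.9e-06). The deubiquitinase gene CYLD (0.99) and the autophagy gene ATG12 (0.36) rose, with edgeR adjusted p of 1.5e-04 and 0.0024. TKFC, whose product binds MDA5, was at -0.55 on the log2 scale (edgeR adjusted p = 2.2e-04), and 0.01 on log2(TPM + 1) (limma adjusted p = 0.953).

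In the list of proteins around the adaptors and kinases 5 of 11 genes rose and 1 fell, with a median of 0.11. With library totals 7 were higher and 0 lower in edgeR (median 0.37), and on log2(TPM + 1) 8 and 0 in limma (median 0.51). The median was 0.23 without control replicate 1, 0.06 without control replicate 2 and 0.07 without control replicate 3. The 3 scaffolds that bind TBK1 and IKK-epsilon all rose: TBKBP1 (log2 fold change 0.77), AZI2 (0.79) and TANK (0.86), with edgeR adjusted p of 2.0e-05, 1.2e-04 and 3.2e-04. OPTN, a ubiquitin-binding partner of TBK1, rose from 31.7 ± 2.59 to 74.9 ± 1.96 CPM (1.24, edgeR adjusted p = 9.8e-07).

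Among the factors and products at the end of the route 5 of 6 tested genes rose and 1 fell. IRF7, the interferon-inducible regulatory factor, rose from 8.64 ± 1.07 to 102.6 ± 4.43 CPM (log2 fold change 3.57, edgeR adjusted p = 1.6e-09). IRF3, the constitutive substrate of TBK1, was named after its values were seen: its log2 value of change was -0.36 (edgeR adjusted p = 0.0092), and 0.01 on log2(TPM + 1) (limma adjusted p = 0.949). Of the interferon genes, IFNL1 had 0 counts in every control and 67, 70 and 82 in the PRL group, which is at least 21.0-fold higher when each control library is set to the floor of 3 counts (edgeR adjusted p = 4.3e-06). IFNL2 had 2 control counts and 160 in the PRL group (ratio 69.2, 95% counting interval 18.8 to 576) and IFNL3 had 1 and 123 (ratio 106.3, interval 18.7 to 4233), with edgeR adjusted p of 8.6e-06 and 6.3e-06. IFNL2 and IFNL3 are near-identical, so the division of reads between them is uncertain. IFNB1, named after its values were seen, had 0 counts in the controls and 3, 7 and 7 in the PRL libraries. It did not reach the filter on low counts, and it was higher in edgeR when no filter was applied (adjusted p = 0.0039). The median of this list was 4.73, or 3.98 with IFNL1 at its bound and 2.75 on log2(TPM + 1).

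In the list around PKR, 5 of 11 genes rose and 3 fell, with a median of -0.05. With library totals 5 were higher and 1 lower (median 0.20), and on log2(TPM + 1) 7 were higher and 0 lower in limma (median 0.38). Without control replicate 3 the median was 0.08. DDIT3, the gene of the stress factor CHOP, rose from 19.6 ± 0.717 to 91.5 ± 5.02 CPM (log2 fold change 2.22, edgeR adjusted p = 1.1e-08). PPP1R15A, whose product GADD34 reverses the phosphorylation that PKR makes, rose by 1.14 on the log2 scale (edgeR adjusted p = 5.9e-06). EIF2AK3, the gene of the related kinase PERK, rose from 5.31 ± 1.14 to 12.7 ± 1.13 CPM (1.25, edgeR adjusted p = 6.3e-05). TARBP2, an RNA-binding inhibitor of PKR, had -0.55 (edgeR adjusted p = 2.8e-04), and -0.16 on log2(TPM + 1) (limma adjusted p = 0.152).

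Other proteins that bind or cut double-stranded RNA were called in both directions, with 2 of 10 tested genes higher, 4 lower and a median of -0.19. Without control replicate 3, 4 were higher and 4 lower. With library totals 4 were higher and 3 lower, and on log2(TPM + 1) 5 were higher and 1 lower. DGCR8, the partner of the microRNA-processing enzyme Drosha, fell from 42.4 ± 4.90 to 19.6 ± 0.828 CPM (log2 fold change -1.11, edgeR adjusted p = 7.8e-06). On log2(TPM + 1) its change was -0.43 (limma adjusted p = 0.0148). STAU1, the gene of a transport protein for structured RNA, rose (0.77, edgeR adjusted p = 1.1e-04). ILF2 (-0.57) and the helicase gene DHX9 (-0.61) were lower, with edgeR adjusted p of 1.9e-04 and 4.3e-04. On log2(TPM + 1) ILF2 (-0.11, limma adjusted p = 0.246) and DHX9 (-0.14, 0.379) did not pass. The list's median was 0.06 with library totals and 0.29 on log2(TPM + 1), in each case below that of all genes.

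Sensors of other nucleic acids were mostly scarce, and 5 of 11 did not reach the filter on low counts. Of 6 tested, 4 rose and 0 fell in edgeR, with a median of 0.90. TLR7, a receptor of single-stranded RNA named after its values were seen, had 10, 21 and 17 counts in controls and 9, 8 and 5 in the PRL group and did not reach the filter. With no filter it was lower (-1.33, edgeR adjusted p = 0.0135). It was also tested and lower without control replicate 1, PRL replicate 1 or PRL replicate 2, where 8 genes of the list were tested and the median was 0.44, 0.36 and 0.36. Without PRL replicate 3, 7 genes of the list were tested and 0 were called lower (median 0.76). The call of TLR7 thus depends on which library is left out. IFI16, a nuclear DNA sensor, rose from 4, 4 and 3 counts to 271, 287 and 271 (log2 fold change 5.98, edgeR adjusted p = 4.3e-09). NLRP1, an inflammasome sensor, had 7 counts in the controls summed and 153 in the summed PRL libraries (ratio 18.9, 95% counting interval 8.95 to 47.8, edgeR adjusted p = 1.6e-05). UNC93B1, which carries TLR3 and other receptors to endosomes, rose (0.73, edgeR adjusted p = 4.6e-05), as did STING1, the adaptor of DNA sensing (1.08, edgeR adjusted p = 0.0011). TLR8 had 1 count in the 6 libraries.

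Among 9 nucleases and RNA decay genes, which remove nucleic acids that sensors can detect, 3 rose and 5 fell, with a median of -0.33, or -0.20 without control replicate 1. The share that rose is close to that of all tested genes, while 5 of 9 fell against 30.5% of all tested genes. On log2(TPM + 1) 4 were higher and 4 lower in limma. SAMHD1, a nucleotide hydrolase, rose from 31.6 ± 1.39 to 106.8 ± 3.57 CPM (log2 fold change 1.75, edgeR adjusted p = 3.8e-08). PNPT1, which degrades mitochondrial RNA, rose from 46.2 ± 4.2 to 115.6 ± 1.47 CPM (1.32, edgeR adjusted p = 6.5e-07). The RNase H2 subunit genes RNASEH2B (-0.81) and RNASEH2C (-0.96) fell, with edgeR adjusted p of 4.8e-05 and 5.6e-05, and by less on log2(TPM + 1) (-0.42 and -0.49, limma adjusted p of 0.0047 and 3.1e-04). This median was -0.07 with library totals and 0.11 on log2(TPM + 1), below that of all genes in both.

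**Figure D5:**
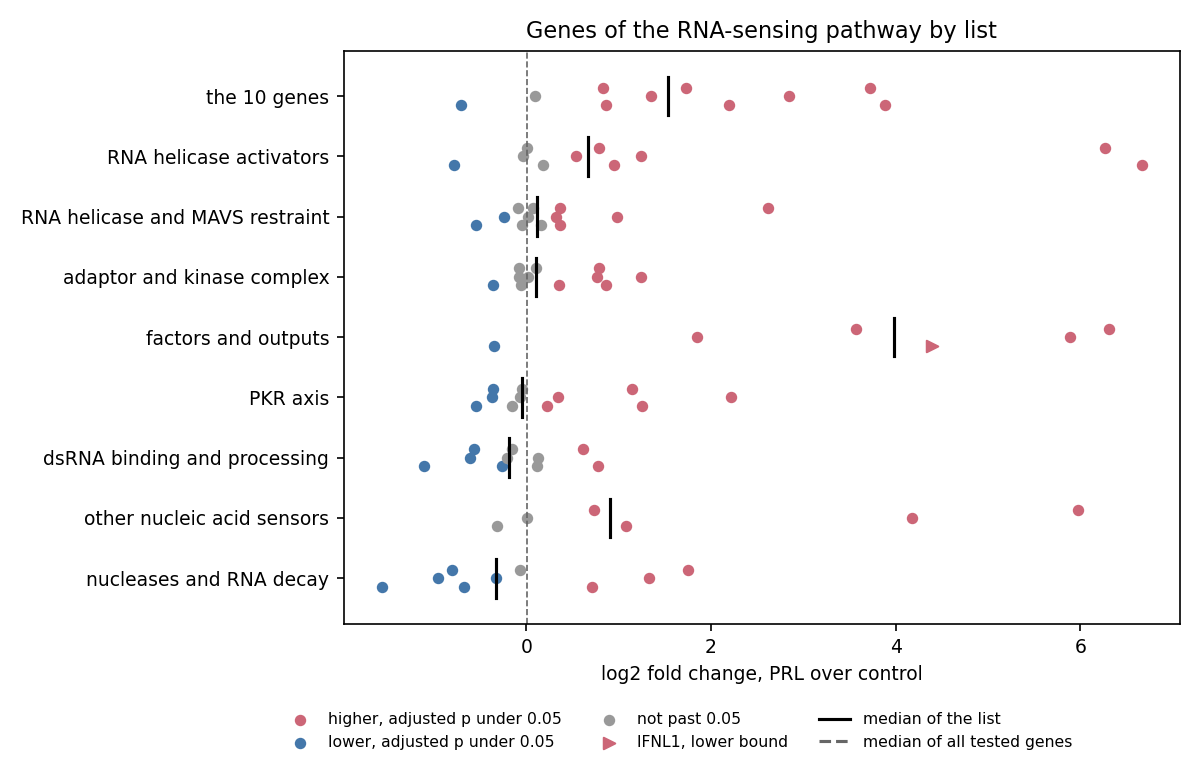
Each point is a tested gene of the 10 members or of 1 of the 8 pathway lists, placed by its log2 fold change of PRL over control and coloured by its call, with black bars at list medians, IFNL1 at its lower bound and a dashed line at the median of all tested genes. The members' median is 1.54, that of the factors and outputs 3.98 with IFNL1 at its bound, and those of the PKR, RNA-binding and nuclease lists are below 0 here and above 0 on log2(TPM + 1).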

How the data were processed

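RNA of 3 control and 3 PRL libraries was analysed, grouped by sample title. Total RNA had been extracted with Trizol, per the labels. HISAT2 2.1.0, Bowtie2 2.3.4.3 and build GRCh38.p13 are listed in the submitters' processing notes. Which tool counted, with what annotation and strand setting, is not given in the sources used here. The authors deposited an estimated count and a TPM value per gene and library, per the file headers. Estimated counts (44.1% to 45.9% of values not whole) were rounded. TPM values, scaled by the authors to length and library, were used as deposited for levels. A further 12 columns were not used.

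Counts were tested in R 4.3.3 with edgeR 4.0.16 (robust quasi-likelihood fit, group as the only term, TMM, filter by group). P-values were adjusted over 14076 genes by Benjamini-Hochberg at a threshold of 0.05. The SE was taken as |log2 fold change| over the square root of F. Limma 3.58.1 and DESeq2 1.42.0 gave alternatives, with a TPM pseudocount of 1 or 0.1. The edgeR script was checked on simulated data in which far fewer genes changed than were called here, so the check does not bear on the choice of scaling. One count stood for 0.0575 to 0.0617 CPM, and a level of 0 allows 3 counts per library (0.165 to 0.203 CPM). Counting error alone is covered by intervals and floors, since PCR copies are not independent molecules. Members and lists were chosen with earlier results of these data known. Named were all members, PRL, in each list the 4 genes of lowest adjusted p, list genes with under 4 counts, and the 3 nearest profiles of DDX58, IFIH1 and DHX58. Gene coordinates and overlaps are from GENCODE 29 (GRCh38), promoters from RefSeq (GRCh38.p14).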

Additional observations from a re-analysis of the deposited data

How the results depend on the processing

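Of the 10 genes, DDX58, IFIH1, DHX58, TLR3, EIF2AK2, ADAR, TBK1 and TICAM1 kept their direction and call in every alternative in which they were tested (16 each, 14 for TLR3, which fell below a mean of 1 TPM). MAVS lost its call in the 3 TPM settings (-0.23 to -0.24, limma adjusted p = 0.152 to 0.189), and IKBKE gained one in these (0.48 to 0.53) and with library totals. Over the alternatives 8 to 10 of the 10 genes were called. The 8 were out of 9 tested, in TPM settings where TLR3 was not tested. Leaving out each library in turn gave 9 each time, and 7590 to 9952 of all genes, against 8854. With the replicate number as a block, 9 of the 10 and 8531 of all genes were called. Deviations of libraries with the same number correlated at -0.11, 0.04 and -0.06, and those with different numbers at -0.06 to 0.13. PRL libraries differed by little more than sampling noise, so these values cannot show whether libraries of the same number were prepared together. A requirement of at least 2-fold, added after seeing the data, left 2231 genes in all and 6 of the 10. TLR3, with 24 control counts, is the gene whose size depth limits most.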
